A study of Homo sapiens with 4 samples.

Results

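The 77 genes described here are the guide RNAs of pseudouridylation and of the Cajal body, named SNORA (61 genes, H/ACA box small nucleolar RNAs) or SCARNA (16 genes, small Cajal body-specific RNAs). They are all genes whose probe sets carried 1 gene symbol beginning with either prefix, out of 18417 genes with 1 symbol on the array. Where a gene had several probe sets, its probe set was chosen by the highest mean level over the 4 arrays, so levels are described without a test. The cells were Caco-2, a long-established line from a human colorectal adenocarcinoma whose cells take on features of absorptive enterocytes after confluence. Cells were grown in regular 6-well plates or on collagen-coated Transwell inserts, whose porous membrane separates an apical from a basolateral side, and received either vehicle or 2 mM sodium cholate, a primary bile acid, for 3 h. On the inserts cholate was given apically, dissolved in calcium-free HEPES-buffered salt solution; the make-up of the vehicle is not stated. There were 4 arrays, 1 per combination of support and treatment, and every array received a pool of RNA from 3 samples. All samples were labelled as 21 days differentiated, while the growth protocol gives 14 days for plates and 14 to 21 days for inserts.

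An H/ACA RNA folds into a pair of hairpins, one followed by the H box and the other by the ACA box, and is bound by dyskerin (DKC1), NHP2, NOP10 and GAR1. An internal loop of each hairpin can pair with a target RNA and places a uridine for conversion to pseudouridine. SNORA RNAs work in the nucleolus, mostly on ribosomal RNA. SCARNA RNAs work in Cajal bodies on the small nuclear RNAs of the spliceosome, and carry H/ACA boxes, C/D boxes (which guide ribose methylation) or both. In human cells most are not transcribed alone: they are trimmed out of the spliced introns of a host gene. In a renewing epithelium such as the gut, these RNAs are known as part of the machinery that makes ribosomes.

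The RNA sequence of 1 of these genes could be shown, in part. The microRNA precursor MIR6516 in RefSeq (GRCh38.p14, chr17:77089417-77089497, strand plus) overlaps SCARNA16 and runs 4 bases past its end. It covers the last hairpin of that RNA, and capitals mark the ACA box, which lies 3 bases before the end of SCARNA16, where the box of an H/ACA RNA belongs.
MIR6516: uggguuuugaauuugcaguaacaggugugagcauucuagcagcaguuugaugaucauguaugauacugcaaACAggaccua

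Since such RNAs are as a rule made from host transcripts, the promoters of 3 hosts are shown, 2 whose guide RNAs stood among the most different in cholate on the plate (TCP1 and RPS12) and 1 whose 3 guide RNAs hardly differed (SNHG17). Each runs from 250 bases before to 50 after the gene's start in RefSeq (GRCh38.p14). Capitals mark matches to 4 motifs searched on both strands: the TATA box TATAAA, the GC box GGGCGG, the ETS core CCGGAA and the AP-1 site TGANTCA, each counted without regard to overlap with another. TCP1 (chr6:159789553-159789852, strand minus), host of SNORA20 and SNORA29, held the GC box.
TCP1: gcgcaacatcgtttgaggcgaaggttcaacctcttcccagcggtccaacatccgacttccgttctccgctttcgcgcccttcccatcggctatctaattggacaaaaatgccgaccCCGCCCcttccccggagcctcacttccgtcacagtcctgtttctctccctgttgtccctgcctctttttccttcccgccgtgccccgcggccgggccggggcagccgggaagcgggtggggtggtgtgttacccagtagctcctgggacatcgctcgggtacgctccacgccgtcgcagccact
RPS12 (chr6:132814319-132814618, strand plus), host of SNORA33, held the ETS core.
RPS12: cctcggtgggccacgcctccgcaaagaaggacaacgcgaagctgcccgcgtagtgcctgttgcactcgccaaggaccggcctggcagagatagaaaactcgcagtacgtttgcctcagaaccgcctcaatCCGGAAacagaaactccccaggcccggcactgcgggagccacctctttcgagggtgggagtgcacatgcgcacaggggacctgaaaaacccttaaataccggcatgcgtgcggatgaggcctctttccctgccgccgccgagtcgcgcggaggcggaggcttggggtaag
SNHG17 (chr20:38435279-38435578, strand minus), host of SNORA71A, SNORA71C and SNORA71D, held none of the 4.
SNHG17: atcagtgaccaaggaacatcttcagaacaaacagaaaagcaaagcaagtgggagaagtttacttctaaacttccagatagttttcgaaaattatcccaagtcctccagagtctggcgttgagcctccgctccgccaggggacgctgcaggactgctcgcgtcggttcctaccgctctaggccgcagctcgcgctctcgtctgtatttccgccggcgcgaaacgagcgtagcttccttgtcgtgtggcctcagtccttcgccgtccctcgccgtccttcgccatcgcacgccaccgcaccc

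The genes above the floor lay in 48 single hosts, of which 39 had a promoter in the table. CCGGAA was present in 20 of these 39 (51.3%), against 17.6% of all 27305 promoters. GGGCGG was present in 29 (74.4%, against 44.6%) and TATAAA in 2 (5.13%), against 3264 of all 27305. TGANTCA was in 0 of them, against 7.76% of all. These are counts of letters in a window, and whether the host promoters differ from others of the same kind was not tested.

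Values are log2 intensities as the authors deposited them. A gene was counted when its mean over the 4 arrays reached the floor of 4.84, the 40th percentile of all 33297 probe sets, and a difference was counted when it reached 1.5-fold (0.58 log2). With 1 array per condition no difference between arrays has a replicate check. The test across all 4 arrays was limma with support and treatment as additive terms, in which the residual (1 degree of freedom) is how far apart the 2 cholate responses lie. None of the 19978 probe sets above the floor passed it. The smallest adjusted p was 0.312 for cholate and 0.0858 for support, while 2162 and 4519 probe sets had an unadjusted p under 0.05. All 7 intestinal epithelial markers lay above the floor, whereas DCN and LUM of fibroblasts, PTPRC and CD3E of leukocytes and VWF and CDH5 of endothelium lay under it; COL1A1, PDGFRA, CD14 and PECAM1 of the same lists lay above it. In these pooled samples fewer cells with an RNA and less RNA per cell cannot be told apart.

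Of the 77 genes, 66 lay above the floor (54 SNORA and 12 SCARNA), and none of the 66 had any array under it. The nearest inside were SNORA70C (mean 4.98) and SNORA2A (5.17), and the nearest outside were SNORA58 (4.58) and SNORA35 (4.37), which lies within the serotonin receptor gene HTR2C. The 11 genes under the floor were SNORA16B, SNORA30, SNORA35, SNORA36C, SNORA58, SNORA69, SNORA70B, SCARNA1, SCARNA4, SCARNA14 and SCARNA23, down to a mean of 3.14. Probe sets differ in their probes, so the levels of different genes are not compared below as amounts of RNA.

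The highest values belonged to scaRNAs of the C/D type. SCARNA9, a guide for U2 small nuclear RNA, read 11.73 in plate vehicle, 11.87 in plate cholate, 11.55 in Transwell vehicle and 11.51 in Transwell cholate. SCARNA7, a guide for U1, read 11.39, 11.53, 11.40 and 11.55 on the arrays in the same order. SCARNA17, which contains guides for U4 and U12, read 11.50, 11.45, 11.08 and 11.21. For each of these RNAs the 4 readings lay within 0.5 log2 of one another. The median SNORA RNA read 6.63 in plate vehicle. The mixed C/D and H/ACA scaRNA SCARNA12 followed at 9.39, 9.49, 9.84 and 9.80. The brightest SNORA RNAs were SNORA21 (9.01, 9.49, 9.39 and 9.41), SNORA71C (9.14, 9.19, 9.36 and 9.48), SNORA71A (8.94, 9.03, 9.34 and 9.34) and SNORA24 (8.62, 9.17, 9.21 and 9.40).

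The highest count of these genes at 1.5-fold came in the comparison of cholate with vehicle on the plate. Of 66 genes, 58 read higher in cholate than in vehicle, 18 of them at least 1.5-fold and 8 at least 2-fold, and 0 were 1.5-fold lower. Among all 12900 genes with 1 symbol above the floor, 1.49% were 1.5-fold higher, 2.35% were 1.5-fold lower and 44.9% read above 0. Among the 5198 probe sets above the floor with no listed gene, 15.1% were 1.5-fold higher, 2.4% were 1.5-fold lower and 62.6% read above 0. At least 2-fold higher were 66 of the 12900 genes and 309 of the 5198 probe sets. The median difference was 0.33 log2 over the 66 genes and 0.32 over all 77, against -0.03 over all genes above the floor. The genes that reached 1.5-fold were all SNORA RNAs, 18 of 54, while 0 of 12 scaRNAs did.

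A host is here the gene that contains the RNA in RefSeq, with strand and intron not checked, and an RNA said to be from a gene lies within it. The largest differences belonged to RNAs from the TCP1 gene, which encodes a subunit of the cytosolic chaperonin. SNORA29 read 6.40 in plate vehicle, 7.73 in plate cholate, 6.28 in Transwell vehicle and 6.90 in Transwell cholate, a difference of 1.33 log2 (2.51-fold) on the plate and 0.62 (1.54-fold) on Transwell. It was the only one of the 66 to reach 1.5-fold on both supports, where 0.178% of all genes and 2.71% of probe sets with no listed gene did. SNORA20, its neighbour in the same host, read 7.10, 8.37, 7.48 and 7.91, with differences of 1.27 and 0.43. For both RNAs plate cholate was the highest of the 4 arrays and Transwell cholate the second.

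In several others the plate cholate array stood alone. SNORA33, from the ribosomal protein gene RPS12, read 6.32, 7.51, 6.59 and 6.80, a difference of 1.18 on the plate and 0.21 on Transwell. SNORA41, from the elongation factor gene EEF1B2, read 5.22, 6.40, 5.18 and 5.29 (1.17 and 0.11). SNORA28, from the initiation factor gene EIF5, read 6.03, 7.09, 5.98 and 6.09 (1.06 and 0.10). In these 3 RNAs the readings on both Transwell arrays lay within 0.5 log2 of the plate vehicle reading. The pair from CNOT1, the scaffold gene of the CCR4-NOT deadenylase, also read highest in plate cholate. SNORA46 read 6.81, 7.94, 6.77 and 7.15 (1.13 and 0.38), and SNORA50A read 8.22, 9.33, 8.12 and 8.27 (1.10 and 0.15). SNORA65, from RPL12, was the last of the 8 at 2-fold, at 6.05, 7.14, 6.46 and 6.80 (1.09 and 0.34).

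**Figure D1:**
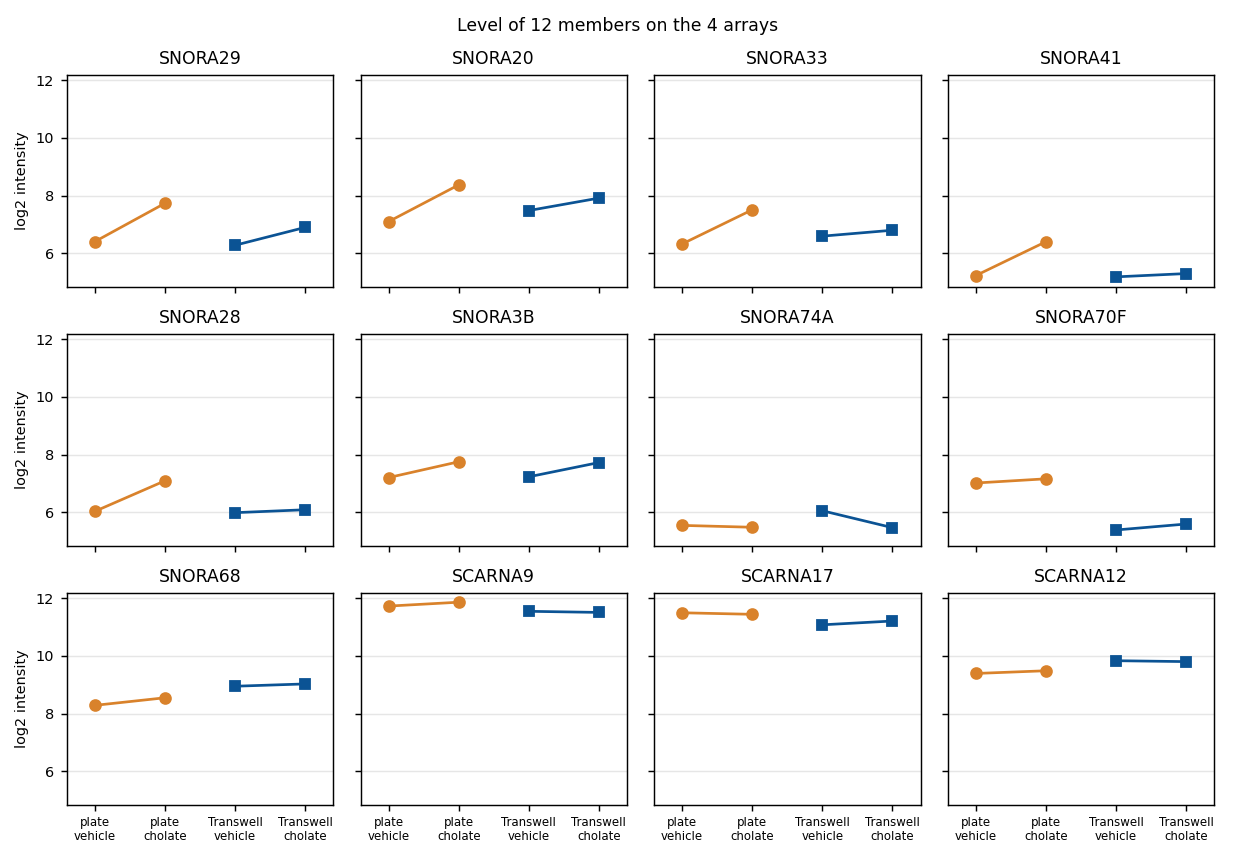
Log2 intensity (vertical axis) of 12 named genes on the 4 arrays (horizontal axis), 1 point per array, with plate readings as orange circles and Transwell readings as blue squares. SNORA29 climbs from 6.40 to 7.73 between vehicle and cholate on the plate, whereas SCARNA9, SCARNA17 and SCARNA12 run nearly flat between vehicle and cholate on each support.

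The other 10 SNORA RNAs past 1.5-fold on the plate were SNORA75 from the nucleolin gene (0.90), SNORA15 (0.89), SNORA57 (0.85), SNORA67 (0.78), SNORA10 (0.75), SNORA19 (0.74), SNORA3A (0.73), SNORA60 (0.73), SNORA62 (0.61) and SNORA2A (0.59). Plate cholate gave the highest of the 4 readings for 42 of the 66 genes, against 26.2% of all genes and 42.1% of probe sets with no listed gene. Between level and plate difference the SNORA RNAs had a Pearson r of 0.08 (54 genes, which share the same arrays). Those past 1.5-fold were 5 of the 18 dimmest, 8 of the middle 18 and 5 of the 18 brightest.

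On Transwell the same genes differed less. Of 66, 51 read higher in cholate (46.4% of all genes and 56% of probe sets with no listed gene), 2 of them at least 1.5-fold (0.357% and 5.73%). At least 1.5-fold lower was 1 of 66 (0.736% and 2.64%). The median difference was 0.12 log2, against -0.01 over all genes. Beside SNORA29, the other at 1.5-fold was SNORA70D, which lies within the phosphatase gene PHLPP2 and read 5.25 in plate vehicle, 5.52 in plate cholate, 4.86 in Transwell vehicle and 5.48 in Transwell cholate. Its highest Transwell reading lay no higher than its plate cholate reading, and its Transwell vehicle reading, near the floor, was the lowest of the 4. Both values lay close to the threshold of 0.58, and with arrays centred on their medians 0 genes reached it on Transwell.

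The RNA that read lower was SNORA74A, also called U19 and 1 of the longest SNORA RNAs measured (200 nt). It read 5.54, 5.48, 6.05 and 5.46, a difference of -0.07 on the plate and -0.59 on Transwell. Here the Transwell vehicle array stood above the other 3, which lay within 0.1 log2 of one another.

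**Figure D2:**
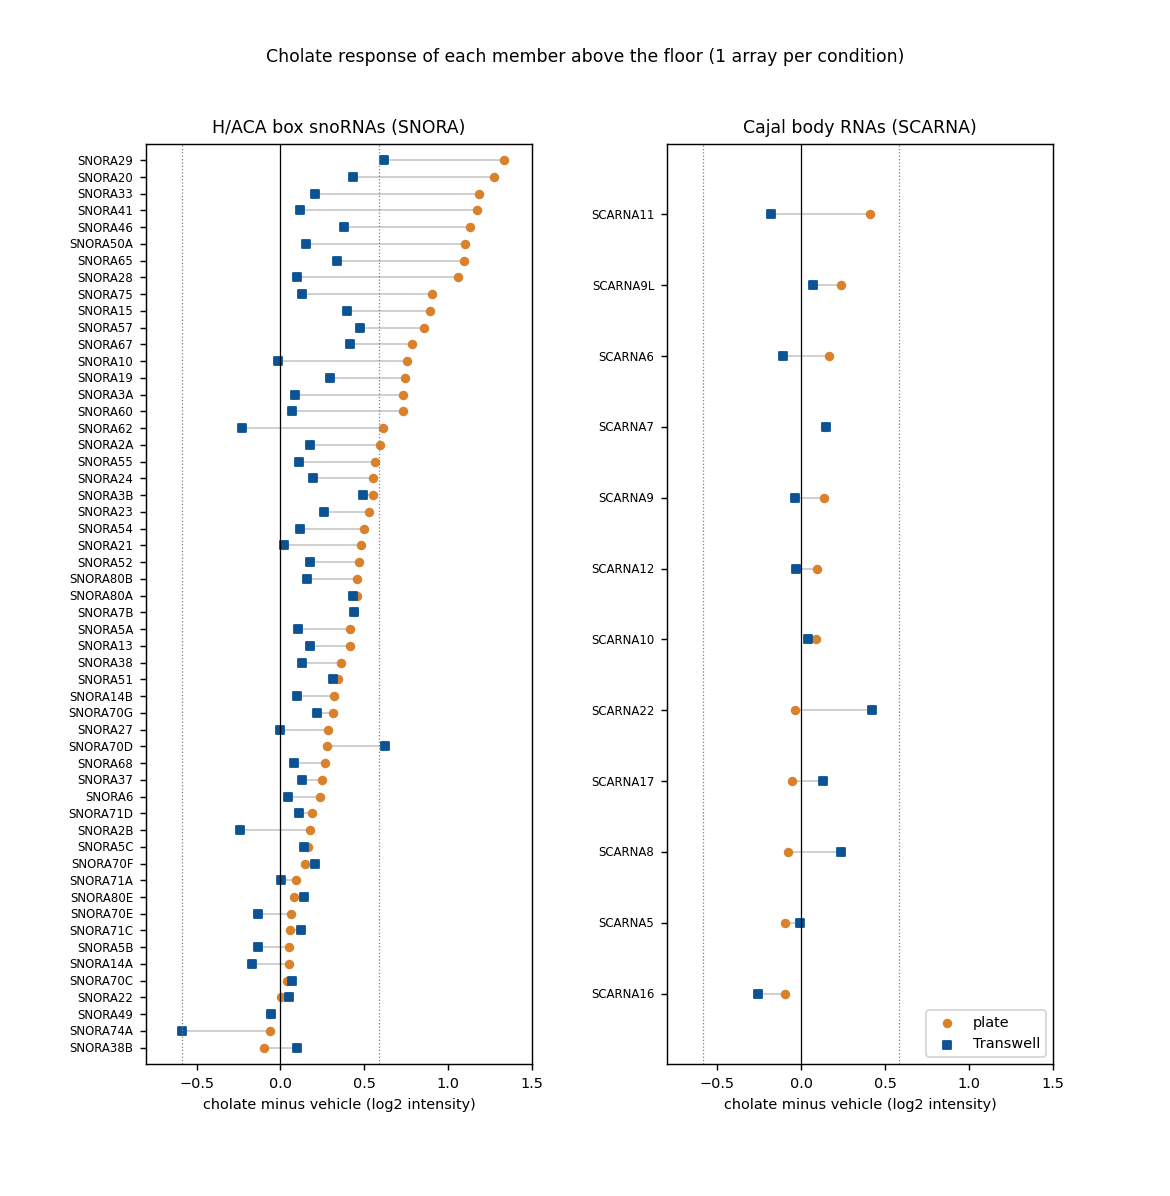
Cholate minus vehicle in log2 intensity (horizontal axis) for each of the 66 genes above the floor (vertical axis, ordered by the plate value), with SNORA RNAs on the left and scaRNAs on the right. Orange circles are the plate, blue squares Transwell, dotted lines mark 1.5-fold, and most plate points of SNORA RNAs lie to the right of their Transwell points.

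Both responses were above 0 for 47 of the 66 genes (26.1% of all genes and 40.9% of probe sets with no listed gene). Both were below 0 for 4 of the 66, against 4481 of 12900 genes and 1159 of 5198 probe sets with no listed gene. The plate response was the larger in 53 of the 66, against 5946 of the 12900 and 3079 of the 5198. Of the 18 genes at 1.5-fold on the plate, 16 read above 0 on Transwell, with a median of 0.19. Over all 66 genes 51 did, with a median of 0.12. Across the 66 genes the responses of the 2 supports, which share no array, correlated at r of 0.48. By the smaller of their 2 responses the leading RNAs were SNORA29, SNORA3B, SNORA57, SNORA7B, SNORA80A and SNORA20.

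In 3 of these 6 the difference was nearly equal on both supports. SNORA3B, from the ribosomal protein gene RPL27A, read 7.20 in plate vehicle, 7.75 in plate cholate, 7.23 in Transwell vehicle and 7.72 in Transwell cholate, differences of 0.55 and 0.49. Its mean response of 0.52 (limma SE 0.09) had the smallest adjusted p of the 66 genes, 0.326 in limma over all probe sets, and so did not pass. SNORA7B, from a pseudogene of a ribosomal protein gene (RPL32P3), read 7.35, 7.79, 7.16 and 7.60 (0.44 on each support). SNORA80A, from the ribosome biogenesis gene URB1, read 6.18, 6.64, 6.39 and 6.82 (0.46 and 0.43). In limma 16 of the 66 had an unadjusted p under 0.05 for cholate (7.99% of all genes and 18.3% of probe sets with no listed gene), all SNORA and all higher, and 0 passed after adjustment. SNORA57, which read 8.28, 9.14, 8.14 and 8.61, stood between the 2 forms, with 0.85 on the plate and 0.47 on Transwell. The 4 genes lower on both supports were SCARNA16 (-0.10 and -0.26), SNORA74A, SNORA49 (-0.06 and -0.05) and SCARNA5 (-0.10 and -0.01). On a single support, SNORA38B was the lowest on the plate, reading 6.22, 6.12, 5.95 and 6.04 (-0.10 and 0.10). SNORA2B was among the 3 lowest on Transwell, reading 5.77, 5.94, 6.31 and 6.07 (0.17 and -0.24).

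The scaRNAs differed little between cholate and vehicle. Over the 12 above the floor the plate median was 0.09 log2 and the Transwell median 0.02, against 0.45 and 0.13 over the 54 SNORA RNAs. The difference between these classes was not tested. The 3 C/D scaRNAs lay between -0.05 and 0.14 on the plate. The 4 mixed scaRNAs, SCARNA5, SCARNA6, SCARNA10 (a guide for U5) and SCARNA12, lay between -0.10 and 0.17. SCARNA5 and SCARNA6 share a host, the autophagy gene ATG16L1. SCARNA5 read 8.77, 8.67, 8.92 and 8.91, and SCARNA6 read 7.91, 8.08, 8.01 and 7.90. SCARNA10 read 9.03, 9.11, 8.94 and 8.98. In these 3 no array stood more than 0.3 log2 from another.

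Of 8 scaRNAs of the H/ACA type, the same box class as the SNORA RNAs, 4 lay above the floor: SCARNA8, SCARNA11, SCARNA16 and SCARNA22. SCARNA11 read 5.06, 5.47, 5.29 and 5.11, the widest plate difference among the chosen probe sets of the scaRNAs (0.41), with -0.18 on Transwell. Its plate cholate reading stood highest. SCARNA22, from the histone methyltransferase gene NSD2, read 6.10, 6.06, 5.82 and 6.24 (-0.04 and 0.42), and SCARNA8 read 5.63, 5.55, 5.48 and 5.71 (-0.08 and 0.23). In both the Transwell cholate array was the highest. SCARNA16, whose hairpin is printed above, read 7.82, 7.72, 8.01 and 7.76. The copy SCARNA9L, which was not placed in a box class, stood at 0.23 and 0.07.

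Most scaRNAs are also longer than the SNORA RNAs. In RefSeq the SNORA RNAs above the floor had a median length of 135 nt (123 to 200) and the scaRNAs one of 274 nt (125 to 421). Of the 9 genes of 200 nt or more, 0 were 1.5-fold higher in cholate on the plate, and of the 57 shorter ones 18 were. The H/ACA scaRNAs, at 125 to 187 nt, lie within the SNORA range of length. In level, the 18 brightest SNORA RNAs (means 7.48 to 9.32) had a plate median of 0.46, while the C/D scaRNAs had means of 11.31 to 11.66. Whether length or level has a part in the scaRNA differences was not tested.

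**Figure D3:**
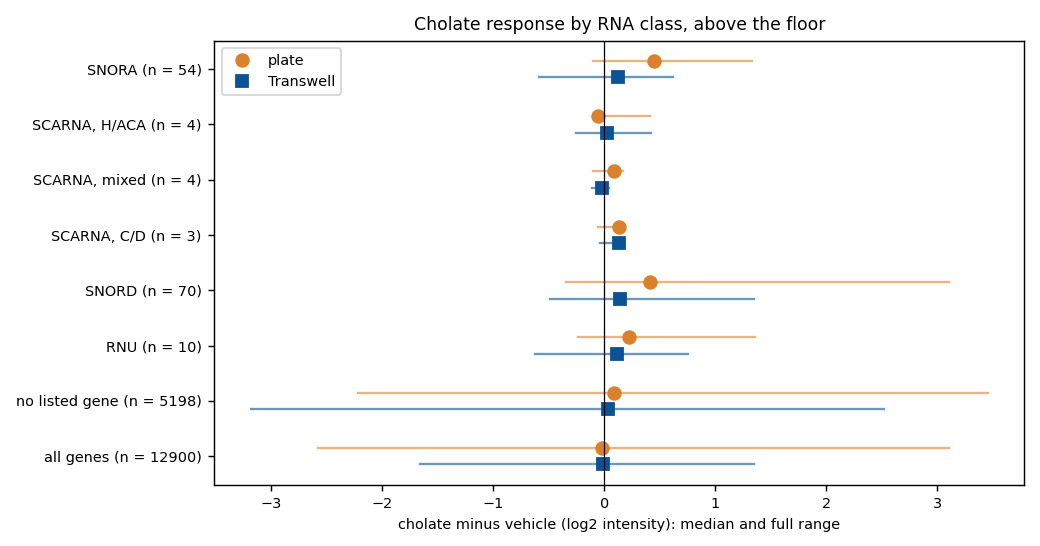
Cholate minus vehicle in log2 intensity (horizontal axis) by RNA class (vertical axis, with the number above the floor), as the median (symbol) and full range (line) over genes, for the plate (orange circles) and Transwell (blue squares). The SNORA median of 0.45 on the plate lies beside that of SNORD (0.41), while the median of each scaRNA class stays below 0.2, and SCARNA9L is not drawn.

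Above the floor, the SNORA RNAs lay close to the C/D box snoRNAs measured on the same arrays in their median cholate difference. The C/D box snoRNAs (SNORD, 70 above the floor) had medians of 0.41 log2 (plate) and 0.14 (Transwell), and 29 of 70 were 1.5-fold higher on the plate. With genes under the floor included, the plate median was 0.21 over 115 SNORD and 0.41 over 61 SNORA genes. On Transwell these medians were 0.09 and 0.12. Their highest single difference was 3.10, against 1.33 among SNORA RNAs. Genes named RNU, mostly spliceosomal small nuclear RNAs (10 above the floor), had medians of 0.23 and 0.12, with 3 of 10 at 1.5-fold on the plate. No difference between these classes was tested. These classes and the probe sets with no listed gene read higher on the same plate cholate array, and the part of that array in the SNORA result was not tested.

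Host transcripts were compared with the RNAs inside them. All 77 genes were found in RefSeq by gene number. With containing genes whose symbols begin with LOC left out, 69 lay within 1 other gene. The other 8 lay within several and were given no host. For 49 of the 66 genes the host also had a probe set above the floor, in 40 distinct hosts. On the plate the hosts had a median cholate difference of -0.09 log2 (from -0.47 to 0.41), and in 44 of the 49 pairs the guide RNA's difference was the higher. Of the 13 guide RNAs at 1.5-fold in this set, 0 had a host at 1.5-fold, and 8 had a host below 0. Among all genes above the floor 1.49% were 1.5-fold higher and 44.9% read above 0, so these host counts lay near the background. Across the 49 pairs the plate differences of guide RNA and host correlated at r of 0.12, where RNAs of 1 host share its value.

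TCP1 itself read 12.27, 12.22, 12.40 and 12.40 on the arrays (plate vehicle, plate cholate, Transwell vehicle, Transwell cholate), a difference of -0.05 on the plate, where its RNAs SNORA29 and SNORA20 stood at 1.33 and 1.27. CNOT1 read 11.60, 11.59, 11.50 and 11.37, a difference of -0.01, where SNORA46 and SNORA50A stood at 1.13 and 1.10. Within each host the pair of RNAs gave nearly the same difference, while the host messenger RNA gave almost none. CCT6A, another chaperonin subunit gene, read 10.65, 10.26, 10.80 and 10.82 and stood at -0.40, where SNORA15 stood at 0.89. Nucleolin (NCL) stood at -0.27, where SNORA75 stood at 0.90.

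Hosts with several RNAs did not always give 1 value. The 3 RNAs of SNHG17, a non-coding host, lay between 0.05 and 0.19 on the plate, with the host at -0.21. Those of TBRG4 were SNORA5A (0.41), SNORA5B (0.05) and SNORA5C (0.17), with the host at -0.04. In RPL27A, SNORA3A stood at 0.73 on the plate and 0.09 on Transwell, while SNORA3B stood at 0.55 and 0.49. In RPSA, SNORA62 stood at 0.61 and SNORA6 at 0.24. Lettered RNAs are copies similar in sequence, and their probes may read each other, so these are not independent.

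By kind of host, a grouping made after the values were seen, the RNAs in genes of ribosomal proteins and translation factors read higher in cholate on the plate in 15 of 15, with a median of 0.61 and 8 at 1.5-fold. Of all genes 44.9% read above 0 and 1.49% reached 1.5-fold, and of probe sets with no listed gene 62.6% and 15.1%. The 6 in SNHG genes had a median of 0.14 with 1 at 1.5-fold, and the 37 in other single hosts one of 0.25 with 7. Over the 54 SNORA RNAs above the floor, whatever their host, 51 read above 0, 18 reached 1.5-fold and the median was 0.45. The only scaRNA in the first kind of host was SCARNA9L, and most scaRNAs lay in other single hosts. Kind of host and RNA class therefore overlap, and the difference between these kinds was not tested.

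**Figure D4:**
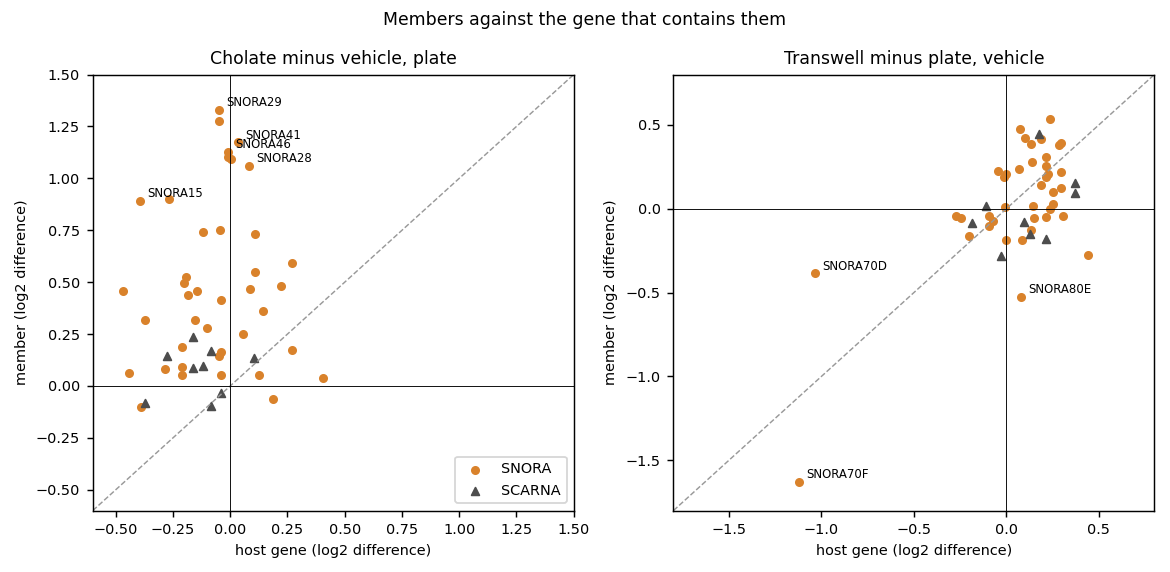
Log2 difference of each guide RNA (vertical axis) against that of the gene that contains it (horizontal axis) for the 49 pairs above the floor, for cholate minus vehicle on the plate (left) and Transwell minus plate in vehicle (right), with SNORA RNAs as orange circles, scaRNAs as dark grey triangles and equality as a dashed line. On the left 44 of 49 points lie above the line, and on the right SNORA70F lies far below 0 together with its host.

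The comparison of supports showed 1 large difference. SNORA70F, which lies within COBLL1, read 7.01 in plate vehicle, 7.16 in plate cholate, 5.38 in Transwell vehicle and 5.59 in Transwell cholate. Transwell minus plate was -1.63 log2 in vehicle (3.1-fold lower) and -1.57 in cholate (2.97-fold lower). Both Transwell readings lay well under both plate readings. The mean difference was -1.60 with a limma SE of 0.09 and an adjusted p of 0.0858 in limma over all probe sets, which did not pass. Its adjusted p lay between 0.0282 and 0.171 over the alternative fits, and the fit with an intensity trend called it. The host COBLL1 read lower on Transwell too, at 9.49, 9.44, 8.37 and 8.27, differences of -1.12 and -1.18. PHLPP2, host of SNORA70D from the same family, stood at -1.04 in vehicle and -0.97 in cholate, and SNORA70D at -0.39 and -0.04. SNORA70D read 5.25 in plate vehicle and 4.86, near the floor, in Transwell vehicle. A vehicle difference as large as its host's would have placed it under the floor. The floor is a cut-off for counting, and members under it read down to a mean of 3.14. Whether the pair differed alike was not tested. In cholate SNORA70D read 5.52 on the plate and 5.48 on Transwell. Over the 49 pairs the vehicle differences of RNA and host correlated at Pearson r of 0.65 (Spearman rho 0.38), and at 0.39 (0.34) without SNORA70F.

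In vehicle, 2 of the 66 genes were 1.5-fold higher on Transwell (1.93% of all genes and 5.27% of probe sets with no listed gene), and SNORA70F was the 1 that was 1.5-fold lower (3.16% and 4.23%). SNORA68 read 8.29, 8.55, 8.95 and 9.03, higher on Transwell by 0.66 in vehicle and 0.48 in cholate. SNORA24, from the non-coding host SNHG8, read 8.62, 9.17, 9.21 and 9.40 (0.59 and 0.23). Both RNAs had their lowest reading in plate vehicle. SNORA49 read 7.63, 7.57, 8.06 and 8.00 (0.42 and 0.43), and SNORA51 read 5.29, 5.63, 5.62 and 5.93 (0.33 and 0.30). SCARNA12 (0.44 and 0.32) and SNORA71A (0.39 and 0.31), whose readings are given above, were also higher in both treatments. SNORA62 was higher in vehicle alone, reading 6.73, 7.35, 7.29 and 7.06 (0.56 and -0.29). On the lower side, SNORA80E read 6.80, 6.88, 6.27 and 6.41 (-0.53 and -0.47), while its host KHDC4 stood at 0.08 and 0.01. SCARNA17 stood at -0.42 and -0.23, SNORA7B at -0.18 and -0.19, SNORA38 (read 6.31, 6.67, 6.12 and 6.25) at -0.18 and -0.42, and SCARNA9 at -0.18 and -0.35. In limma 11 of the 66 had an unadjusted p under 0.05 for support, 7 of them higher on Transwell, where 24.1% of all genes and 19.4% of probe sets with no listed gene had one, so this count lay below the background.

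In cholate more of these genes read lower on Transwell than higher. Of the 66, 0 were 1.5-fold higher on Transwell (4.02% of all genes and 3.96% of probe sets with no listed gene), and 9 were 1.5-fold lower (3.75% of all genes and 11.2% of probe sets with no listed gene). The median was 0.10 log2 in vehicle and -0.13 in cholate. Of the 9, 8 were among the 18 that were higher in cholate on the plate, and the ninth was SNORA70F. The 2 counts share the plate cholate array, so they are not separate observations. For SNORA41, the values were -0.04 in vehicle and -1.11 in cholate, and for SNORA50A -0.10 and -1.06. The plate response exceeded the Transwell response most in SNORA41 (by 1.06), SNORA33 (0.98) and SNORA28 (0.96). It fell short most in SCARNA22 (-0.46), SNORA70D (-0.34) and SCARNA8 (-0.32). This difference uses all 4 arrays and has no test.

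**Figure D5:**
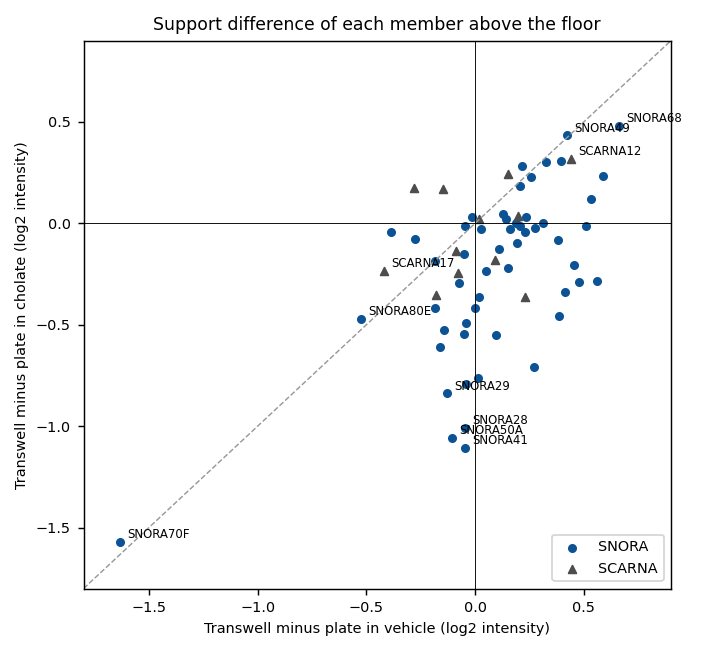
Transwell minus plate in cholate (vertical axis) against the same in vehicle (horizontal axis), both in log2 intensity, for the 66 genes above the floor, with SNORA RNAs as blue circles, scaRNAs as dark grey triangles and equality as a dashed line. Most points lie below the line, SNORA41, SNORA50A and SNORA28 near 0 in vehicle and at -1 or lower in cholate, and SNORA70F sits near the line at the lower left.

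The genes for the proteins of the H/ACA particle read lower, not higher, in cholate on the plate. Of 18 listed genes 17 were measured, all above the floor, and 0 passed limma for cholate or support after adjustment (0 and 6 with an unadjusted p under 0.05, where 7.99% and 24.1% of all genes had one). The 9 genes of the H/ACA particle and its assembly were all lower in cholate on the plate, from -0.50 to -0.13 with a median of -0.32, where 44.9% of all genes read above 0, and 0 reached 1.5-fold. DKC1, the pseudouridine synthase, read 8.61 in plate vehicle, 8.10 in plate cholate, 9.17 in Transwell vehicle and 9.02 in Transwell cholate. NOLC1, a chaperone of the particle, read 9.30, 8.81, 9.26 and 9.09, and GAR1 read 7.50, 7.15, 7.42 and 7.42. For DKC1 both Transwell readings lay above both plate readings. On Transwell against plate in cholate, 3 of the 17 were 1.5-fold higher, against 4.02% of all genes: DKC1 (0.91), the assembly ATPase gene RUVBL1 (0.65) and COIL (0.60). On Transwell the 9 had a median of -0.10. COIL, the marker protein of the Cajal body, read 9.76, 9.66, 10.17 and 10.26, and WRAP53, which brings RNAs to it, 6.22, 6.16, 6.45 and 6.33. The trimming genes PARN, EXOSC10, DIS3 and TOE1 lay between -0.22 and 0.01 on the plate. TERC, the telomerase RNA, which is an H/ACA RNA with its own promoter, read 7.92, 7.92, 7.58 and 8.10, 0.00 on the plate and 0.52 on Transwell.

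A few genes were read by several probe sets. The second probe set of SNORA10 held the same values as the first as written in the table, and SNORA15 had 3, of which 2 were the same, so they add no independent reading. The other SNORA15 value on the plate was 0.97, beside 0.89. SCARNA9 had a second, dimmer probe set that stood at 0.43 on the plate and -0.53 on Transwell against plate in vehicle, where the chosen one stood at 0.13 and -0.18. The second of SCARNA17 stood at 0.04 and -0.57, beside -0.05 and -0.42. The second of SCARNA9L stood at 0.40 on the plate and -0.57 on Transwell against plate in cholate, beside 0.23 and -0.24. Of the 28 probe sets that listed several symbols with a SNORA or SCARNA among them, which are not counted above, 26 lay above the floor. Their median difference in cholate on the plate was 0.30, with 8 at 1.5-fold.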

How the data were processed

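RNA was measured on 1 array for each of 4 conditions. The deposited files hold log2 intensities for each probe set, which the authors computed with RMA (source: the submitters' processing notes). Its version, the probe set definition and the genome build are not stated, so no position of a guide RNA is given. RMA makes the arrays' distributions alike (medians 5.64 to 5.73) and would hide a shift common to most RNAs. The number of arrays limits the precision, and pooling leaves the variation among cultures out of every standard error. Gene names came from the platform annotation, where 83 probe sets carried 1 SNORA or SCARNA symbol and 28 listed several symbols and were left out. RefSeq (GRCh38.p14) gave lengths, host genes and sequences. Differences are log2 values of 1 array minus another. limma 3.58.1 in R 4.3.3 (lmFit and eBayes, 2-sided, Benjamini-Hochberg adjusted p under 0.05) was fitted over all probe sets above the floor and tested on simulated data. The members and gene lists were chosen with earlier results of these data known. Genes named are the 8 brightest, the 6 highest and 6 lowest for cholate on both supports and for support in both treatments, the 3 highest and 3 lowest in each single difference and in the difference of the cholate responses, every scaRNA, lettered families and groups sharing a host. Others are named only as members of a count. Alternatives were median centring, quantile and cyclic loess normalization, no floor or the 60th percentile, the mean of a gene's probe sets, a 2-fold threshold, an intensity trend, and, chosen after seeing the data, adding probe sets with several symbols.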

Additional observations from a re-analysis of the deposited data

Results flagged for a closer look

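1 gene above the floor had responses to cholate of at least 0.2 log2 in opposite directions on the 2 supports. SNORA62, from the ribosomal protein gene RPSA, stood at 0.61 on the plate and -0.23 on Transwell. For the difference between supports, 7 genes were higher on Transwell in vehicle and lower in cholate by at least 0.2. They were SNORA62 (0.56 in vehicle and -0.29 in cholate), SNORA10 (0.48 and -0.29), SNORA60 (0.46 and -0.21), SNORA65 (0.41 and -0.34), SNORA20 (0.38 and -0.46), SNORA33 (0.27 and -0.71) and SCARNA11 (0.23 and -0.36). None of these differences was tested, since each rests on 1 array per condition.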

How the results depend on the processing

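The median difference of the members kept its sign under every alternative tried. It ranged from 0.26 to 0.37 log2 for cholate on the plate, 0.07 to 0.12 on Transwell, 0.06 to 0.16 for Transwell minus plate in vehicle and -0.14 to -0.09 in cholate. The count 1.5-fold higher in cholate on the plate was 18 and became 8 at a 2-fold threshold. On Transwell the 2 higher became 0 under median centring and at 2-fold, and 1 under quantile normalization, cyclic loess and the 60th percentile floor; the 1 lower became 0 at 2-fold and under the 60th percentile floor. For Transwell minus plate in vehicle, the 2 higher became 1 under quantile normalization and cyclic loess and 0 at 2-fold, and the 1 lower became 0 under the 60th percentile floor, where SNORA70F is not counted. In cholate the 9 lower became 4 at 2-fold, and 4 under the 60th percentile floor, which counts fewer genes. They became 14 with probe sets of several symbols added, which brought in 26 more above the floor, 5 of them lower. limma called 0 members for cholate in every fit (14 to 18 with an unadjusted p under 0.05). For support it called 0 members except with an intensity trend, which called 1 (SNORA70F) among 293 probe sets. No difference of a named gene that had reached 1.5-fold changed sign. With 1 array per condition there were no replicates to pair. With support as a term, limma estimated 1 cholate difference over both supports, from the differences within each.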
